A study of Homo sapiens with 12 samples.

Results

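The human genome encodes a small set of cyclin-dependent kinase (CDK) inhibitor genes besides CDKN1A, the gene of p21. Described here are the 7 of them with the symbols CDKN1B, CDKN1C, CDKN2A, CDKN2B, CDKN2C, CDKN2D and CDKN3. They were chosen by name and function and matched by Ensembl identifier among 57773 gene rows of a deposited expression table. Expression was measured by RNA-seq in RPE1, an immortalised human line derived from retinal pigment epithelium. The cells were transfected for 24 h either with siRNA against Anillin, a scaffold protein of the contractile ring that divides a cell after mitosis, or with a non-targeting siRNA. A Hoechst dye, given at 2 μg/mL for 60 min, then let 4N and 2N cells be separated by flow sorting. There were 3 libraries in each of 4 groups, Anillin 4N and Anillin 2N beside control 4N and control 2N. All groups share the line, the transfection and the stain, and the submitters describe a group's libraries as biological replicates. The sort reads DNA content only, so a 4N fraction can hold cells in G2 or mitosis as well as cells that failed to divide and entered a tetraploid G1, and a 2N fraction holds the cells not yet replicated.

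CDKs drive the cell cycle when bound to cyclins, and the inhibitor genes encode proteins that hold them back. The CIP/KIP proteins, p27 from CDKN1B and p57 from CDKN1C beside p21, bind whole cyclin-CDK complexes, chiefly those of CDK2. The INK4 proteins, p16 from CDKN2A, p15 from CDKN2B, p18 from CDKN2C and p19 from CDKN2D, bind CDK4 and CDK6 and keep D-type cyclins from activating them, so that the retinoblastoma protein stays active. CDKN3 encodes KAP, a phosphatase that removes the activating phosphate of CDK2 and is counted with the inhibitors by name rather than by mechanism.

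The siRNA target ANLN was low in both Anillin groups. It had 0.0989, 0.0855 and 0.0700 RPKM (reads per kilobase of gene, scaled to library size) in Anillin 4N and 0.0850, 0.0582 and 0.0395 RPKM in Anillin 2N, against 8.42, 7.45 and 7.98 RPKM in control 4N and 1.88, 1.25 and 1.66 RPKM in control 2N. CDKN1A, the paralog not covered further, averaged 85.2 RPKM in Anillin 4N, 42.7 in Anillin 2N, 31.1 in control 4N and 26.98 in control 2N. Between 17384877 and 61654006 reads per library fell in genes, no libraries were identical, and their correlations over log2 values of all tested genes lay between 0.942 and 0.992. Of 10 retinal pigment epithelium markers, OTX2 averaged 3.76 RPKM and RDH5 5.47 RPKM over the 12 libraries. RPE65, RLBP1, BEST1, TYRP1, MITF, PMEL and SERPINF1 averaged at most 0.130 RPKM and TTR was listed at 0. These RPKM values divide by the genomic span, so a long gene can have a low value without having few reads. Among genes of simple epithelium and the line, KRT8 averaged 8.53, KRT18 109.1 and VIM 686.7 RPKM. In sorted bulk RNA, fewer cells of one state and less RNA per cell cannot be told apart.

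The promoters of CDKN2C, CDKN2D and CDKN3 are shown because these 3 genes were highest in control 4N, and that of CDKN1B because it holds like motif letters without that pattern. The sequences are from RefSeq on GRCh38.p14 and run 5′ to 3′ on the gene's strand from 250 bases before to 50 after an annotated start. Capitals mark motif letters found on either strand, namely TTTGAA and also TTTAAA for the cell cycle genes homology region (CHR), CCAAT for the CCAAT box and, for E2F factors, TTCCCGC and also TTCGCGC, besides TTGGCGC and lastly TTGCCGC. The motifs do not overlap in these windows.
CDKN3, chr14:54396757-54397056, plus strand: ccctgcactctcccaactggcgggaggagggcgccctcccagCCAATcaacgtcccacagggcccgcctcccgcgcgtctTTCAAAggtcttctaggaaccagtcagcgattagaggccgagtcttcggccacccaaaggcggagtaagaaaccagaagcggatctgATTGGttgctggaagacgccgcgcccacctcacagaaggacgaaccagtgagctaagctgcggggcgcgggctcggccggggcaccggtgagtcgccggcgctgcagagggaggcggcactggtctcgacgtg
CDKN2D, chr19:10568930-10569229, minus strand: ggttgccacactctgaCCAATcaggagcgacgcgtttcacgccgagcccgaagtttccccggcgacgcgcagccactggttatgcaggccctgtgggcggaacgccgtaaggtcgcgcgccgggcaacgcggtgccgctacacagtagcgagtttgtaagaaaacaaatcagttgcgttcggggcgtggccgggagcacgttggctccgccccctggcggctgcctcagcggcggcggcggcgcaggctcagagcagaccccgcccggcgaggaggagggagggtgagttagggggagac
CDKN2C at its middle annotated start, chr1:50968456-50968755, plus strand: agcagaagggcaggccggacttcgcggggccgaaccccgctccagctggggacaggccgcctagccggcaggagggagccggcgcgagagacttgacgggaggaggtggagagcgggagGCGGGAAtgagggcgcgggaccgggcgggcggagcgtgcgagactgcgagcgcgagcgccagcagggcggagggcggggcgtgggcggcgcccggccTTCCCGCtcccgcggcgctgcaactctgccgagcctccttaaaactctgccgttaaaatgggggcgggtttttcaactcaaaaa
CDKN2C at its last annotated start, chr1:50969995-50970294, plus strand: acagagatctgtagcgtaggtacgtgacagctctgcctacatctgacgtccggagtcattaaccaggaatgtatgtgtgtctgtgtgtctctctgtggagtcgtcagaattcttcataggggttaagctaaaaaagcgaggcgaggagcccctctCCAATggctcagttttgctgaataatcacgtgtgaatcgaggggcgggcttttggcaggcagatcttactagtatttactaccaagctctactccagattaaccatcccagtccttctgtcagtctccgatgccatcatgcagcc
CDKN1B, chr12:12717118-12717417, plus strand: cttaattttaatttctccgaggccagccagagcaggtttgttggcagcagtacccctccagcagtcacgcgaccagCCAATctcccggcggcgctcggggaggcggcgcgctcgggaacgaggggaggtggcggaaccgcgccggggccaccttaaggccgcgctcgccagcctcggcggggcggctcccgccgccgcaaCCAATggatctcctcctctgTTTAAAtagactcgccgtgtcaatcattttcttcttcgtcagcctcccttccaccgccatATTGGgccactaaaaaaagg
With the start as base 1 and the base before it as -1, the CDKN3 window holds TTTGAA at -170 on the opposite strand, and CCAAT at -208 and, on the opposite strand, at -83. CDKN2D holds 1 CCAAT, at -234. CDKN2C has 3 annotated starts. The middle one has TTCCCGC at -131 on the opposite strand and at -34 on the gene's strand, the last has CCAAT at -95, and the first has none of these letters. CDKN1B holds TTTAAA at -30 and 3 copies of CCAAT. The 2 windows of CDKN2A and the window of CDKN2B hold none of the letters searched. CDKN1C has no window in the promoter set used and was not searched. Among 35116 RefSeq promoters, 24.0% hold a CHR match, 13.0% an E2F match and 34.6% a CCAAT match. Counted by gene, with a match in any window, the shares of 27305 genes are 27.85%, 15.27% and 39.72%. A match is a run of letters and not a measured binding site.

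To compare levels between the genes, reads were recovered from the deposited values and divided by exon length in place of the authors' gene span, giving an exon-based RPKM. On this scale the 7 genes summed to 74.3 ± 2.04 in Anillin 4N, 67.0 ± 1.05 in Anillin 2N, 123.8 ± 2.63 in control 4N and 72.8 ± 3.14 in control 2N (SD, n = 3 each). The libraries of the other 3 groups lay between 65.9 and 76.6, and the 3 control 4N libraries stood above them at 121.1 to 126.3. CDKN3 made up 10.8% of the sum in Anillin 4N, 4.72% in Anillin 2N, 35.4% in control 4N and 16.2% in control 2N. The make-up of the set therefore differed between the groups as well as its total. This scale takes all counted reads as exonic, which was not tested.

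**Figure D1:**
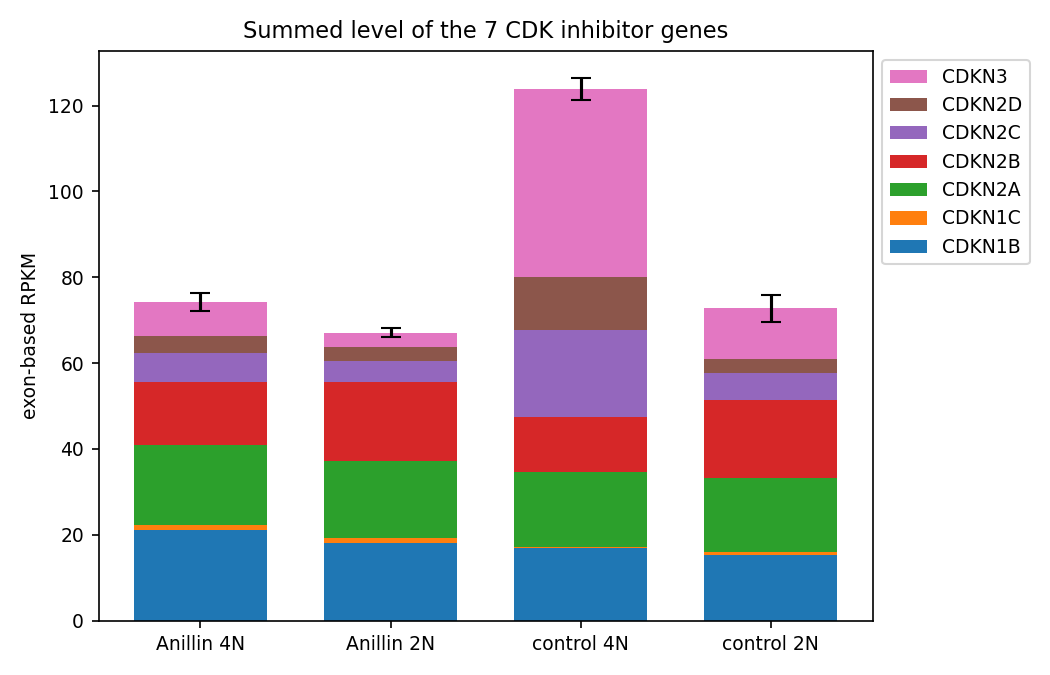
Summed level of the 7 CDK inhibitor genes in exon-based RPKM, as the mean of 3 libraries per group with the SD of the sum as error bars and 1 colour per gene. Anillin 4N (74.3), Anillin 2N (67.0) and control 2N (72.8) have like totals, and control 4N (123.8) stands higher, with a larger CDKN3 segment.

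The order of the genes by exon-based share also differed. In Anillin 4N it ran CDKN1B (28.4%), CDKN2A (25.2%), CDKN2B (19.8%), CDKN3 (10.8%), CDKN2C (9.05%), CDKN2D (5.23%) and CDKN1C (1.54%), and the library ranges of neighbours in this order did not overlap. In Anillin 2N, CDKN2B (27.5%), CDKN1B (27.2%) and CDKN2A (26.8%) had overlapping ranges at the top, followed by CDKN2C (7.35%), and CDKN2D (4.84%) and CDKN3 (4.72%) overlapped below them. In control 4N, CDKN3 (35.4%) and CDKN2C (16.4%) came before CDKN2A (14.0%) and CDKN1B (13.6%), which overlapped, as did CDKN2B (10.3%) and CDKN2D (9.91%). In control 2N, CDKN2B (25.1%) and CDKN2A (23.8%) overlapped and CDKN1B (21.1%), CDKN3 (16.2%), CDKN2C (8.53%) and CDKN2D (4.52%) followed. CDKN1C was the lowest member in every group.

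CDKN1B (ENSG00000111276, chr12:12715058-12722371, plus strand, GENCODE 29 on GRCh38) encodes p27, which restrains cyclin E and cyclin A complexes of CDK2 in quiescent and early G1 cells. It had 7.56, 8.14 and 8.63 RPKM in Anillin 4N and 6.61, 7.07 and 7.29 RPKM in Anillin 2N, against 6.48, 6.65 and 6.28 RPKM in control 4N and 5.84, 5.91 and 5.94 RPKM in control 2N. Each Anillin library thus stood above all control libraries of the same DNA content. In limma's test on log2(RPKM + 0.5), with p adjusted over all 12892 genes tested, the log2 change with Anillin siRNA was 0.30 ± 0.05 (SE) in 4N cells (adjusted p = 0.000675) and 0.23 ± 0.05 in 2N cells (adjusted p = 0.00860). These changes are small, since the mean in Anillin 4N was 1.25 times that in control 4N. Between Anillin 4N and Anillin 2N the change was 0.20 (95% interval 0.09 to 0.31, adjusted p = 0.0657). That comparison passed the threshold without Anillin 4N replicate 1 (log2 change 0.25, adjusted p = 0.0382) and on the recovered reads (0.23, adjusted p = 0.0290).

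CDKN1C (ENSG00000129757, chr11:2883213-2885773, minus strand), an imprinted gene expressed mainly from the maternal copy, encodes p57. Its RPKM values were 1.12, 1.01 and 1.05 in Anillin 4N with 1.09, 0.899 and 1.01 in Anillin 2N, against 0.219, 0.546 and 0.464 in control 4N and 0.572, 0.585 and 0.426 in control 2N. All 6 Anillin libraries were above all 6 control libraries, and within each siRNA the 4N and 2N libraries overlapped. The values rest on 14 to 139 reads per library, the fewest of the 7 genes. The log2 change with Anillin siRNA was 0.80 ± 0.12 in 4N cells (adjusted p = 0.000438) and 0.55 ± 0.12 in 2N cells (adjusted p = 0.00925). The pseudocount shrinks changes at this level, and on the recovered reads they were 1.33 and 0.98. In the ratio of mean RPKM, Anillin 4N stood at 2.59 times control 4N and Anillin 2N at 1.90 times control 2N. The siRNA effect did not pass the test for a difference between 4N and 2N cells (0.25, 95% interval -0.15 to 0.64, adjusted p = 0.386).

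CDKN2A (ENSG00000147889, chr9:21967753-21995301, minus strand) encodes p16 and, in another reading frame from another first exon, p14ARF, an inhibitor of MDM2. The deposited row sums both products. It had 2.96, 2.89 and 2.96 RPKM in Anillin 4N and 2.91, 2.76 and 2.79 RPKM in Anillin 2N, against 2.90, 2.47 and 2.81 RPKM in control 4N and 2.85, 2.56 and 2.75 RPKM in control 2N. The ranges of all groups overlapped except that Anillin 4N and control 2N were apart, and no comparison passed limma's test, also at an unadjusted p under 0.05 or on the recovered reads. Between Anillin 4N and control 4N the log2 change was 0.09 (95% interval -0.02 to 0.21, adjusted p = 0.158). That comparison passed when libraries were scaled to equal quantiles (0.20, adjusted p = 0.00283) or by median ratios (0.15, adjusted p = 0.0145).

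CDKN2B (ENSG00000147883, chr9:22002903-22009363, minus strand), next to CDKN2A, encodes p15, an effector of TGF-beta arrest. Its RPKM was 9.02, 9.34 and 9.34 in Anillin 4N with 11.5, 11.5 and 11.8 in Anillin 2N, against 7.09, 8.88 and 7.99 in control 4N and 10.5, 12.3 and 11.6 in control 2N. All 6 libraries of 4N cells were below all 6 of 2N cells. In control cells, CDKN2B was lower in 4N than in 2N by a log2 change of -0.50 ± 0.07 (adjusted p = 0.000757). After Anillin siRNA the 4N to 2N change was -0.31 (95% interval -0.48 to -0.15), which missed the threshold (adjusted p = 0.0533) and passed on the recovered reads (-0.33, adjusted p = 0.00960). That change also passed with a filter at RPKM 1 and in a fit on the compared groups alone. In 4N cells it was higher after Anillin siRNA (0.20 ± 0.07, adjusted p = 0.0438), but without any 1 of Anillin 4N replicates 1, 2 or 3 or control 4N replicates 1 or 3 the adjusted p was between 0.0684 and 0.156. That change was 0.13 without control 4N replicate 1 and 0.33 with quantile scaling. In 2N cells the siRNA comparison gave 0.02 (95% interval -0.15 to 0.19, adjusted p = 0.879).

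CDKN2A and CDKN2B lie opposite the annotated transcripts CDKN2B-AS1, the antisense RNA of the locus, and AL359922.1 on the plus strand. The strand setting of the authors' counting is not given in the sources used here, so reads of the opposing genes may have been counted together. CDKN2B-AS1 had 86 to 324 reads per library and passed no comparison between groups on the reads (adjusted p = 0.261 between Anillin 4N and control 4N, log2 change -0.17). Whether its siRNA change differed between 4N and 2N cells was not looked at. AL359922.1 had 876 to 4444 reads and was lower with Anillin siRNA in 4N cells (log2 change -0.45, adjusted p = 1.81e-06) and in 2N cells (-0.30, adjusted p = 0.000207). MTAP, on the same strand as AL359922.1, had 752 to 3826 reads and was lower with Anillin siRNA in 4N (-0.47, adjusted p = 2.21e-06) and in 2N cells (-0.31, adjusted p = 0.000260). The part of these reads in the values of CDKN2A and CDKN2B was not tested. How far AL359922.1 and MTAP count the same reads was not tested either.

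CDKN2C (ENSG00000123080, chr1:50960745-50974633, plus strand) encodes p18. It had 1.57, 1.57 and 1.67 RPKM in Anillin 4N and 1.31, 1.14 and 1.08 RPKM in Anillin 2N, against 4.92, 4.59 and 5.07 RPKM in control 4N and 1.60, 1.34 and 1.51 RPKM in control 2N. The 3 control 4N libraries stood far above the other 9, and Anillin 4N overlapped control 2N. CDKN2C fell in Anillin 4N to 0.331 times the control 4N mean (log2 change -1.35 ± 0.06, adjusted p = 1.76e-07). In control cells it was 3.27 times as high in 4N as in 2N (1.43 ± 0.06, adjusted p = 1.55e-07). The gap between DNA contents was smaller after Anillin siRNA, at 0.33 ± 0.06 (adjusted p = 0.0189). This smaller call was lost without any 1 of Anillin 4N replicates 1, 2 or 3 or Anillin 2N replicates 2 or 3 (adjusted p 0.0525 to 0.0790, log2 change 0.29 to 0.34). It was also lost without a filter on low values (adjusted p = 0.0508) and in a fit on the compared groups alone (adjusted p = 0.0545). Between Anillin 4N and control 2N the change was 0.09 (95% interval -0.05 to 0.23, adjusted p = 0.331).

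CDKN2D (ENSG00000129355, chr19:10566462-10569059, minus strand) encodes p19. Its RPKM was 2.50, 2.02 and 2.22 in Anillin 4N with 2.20, 1.68 and 1.76 in Anillin 2N, against 7.44, 6.41 and 7.46 in control 4N and 1.98, 1.62 and 2.12 in control 2N. Control 4N again stood apart, and the other 3 groups overlapped each other. CDKN2D fell in Anillin 4N to 0.316 times the control 4N mean (log2 change -1.47 ± 0.11, adjusted p = 3.20e-06). In control cells the 4N mean was 3.72 times the 2N mean (1.66 ± 0.11, adjusted p = 2.71e-06). The change was -0.02 between Anillin 2N and control 2N (95% interval -0.26 to 0.22, adjusted p = 0.921), 0.21 between Anillin 4N and Anillin 2N (-0.03 to 0.45, adjusted p = 0.375) and 0.19 between Anillin 4N and control 2N (-0.05 to 0.43, adjusted p = 0.211).

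CDKN3 (ENSG00000100526, chr14:54396849-54420218, plus strand) encodes the phosphatase KAP. It had 0.649, 0.579 and 0.666 RPKM in Anillin 4N and 0.275, 0.230 and 0.241 RPKM in Anillin 2N, against 3.61, 3.38 and 3.34 RPKM in control 4N and 1.10, 0.706 and 0.989 RPKM in control 2N. No groups overlapped. From highest to lowest they ran control 4N, then control 2N, then Anillin 4N, then Anillin 2N. CDKN3 fell with Anillin siRNA in 4N cells, to 0.183 times the control 4N mean (log2 change -1.80 ± 0.09, adjusted p = 2.28e-07). In 2N cells it fell to 0.267 times the control 2N mean (-0.93 ± 0.09, adjusted p = 0.000113). It was higher in 4N than in 2N cells within both siRNAs, by 2.54 times after Anillin siRNA (0.59 ± 0.09, adjusted p = 0.00497) and by 3.70 times in control cells (1.47 ± 0.09, adjusted p = 1.48e-06). Because the authors divided by the genomic span, its RPKM is low beside the pseudocount, and on the recovered reads the siRNA changes were -2.43 in 4N and -1.91 in 2N cells and that between Anillin 4N and Anillin 2N was 1.35. Against control 2N, Anillin 4N was lower (-0.33 ± 0.09, adjusted p = 0.0191), a call lost without Anillin 4N replicate 2, control 2N replicate 1 or control 2N replicate 3 (adjusted p 0.0618 to 0.0665, log2 change -0.24 to -0.30). A fit on the compared groups alone lost it as well (adjusted p = 0.0904).

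**Figure D2:**
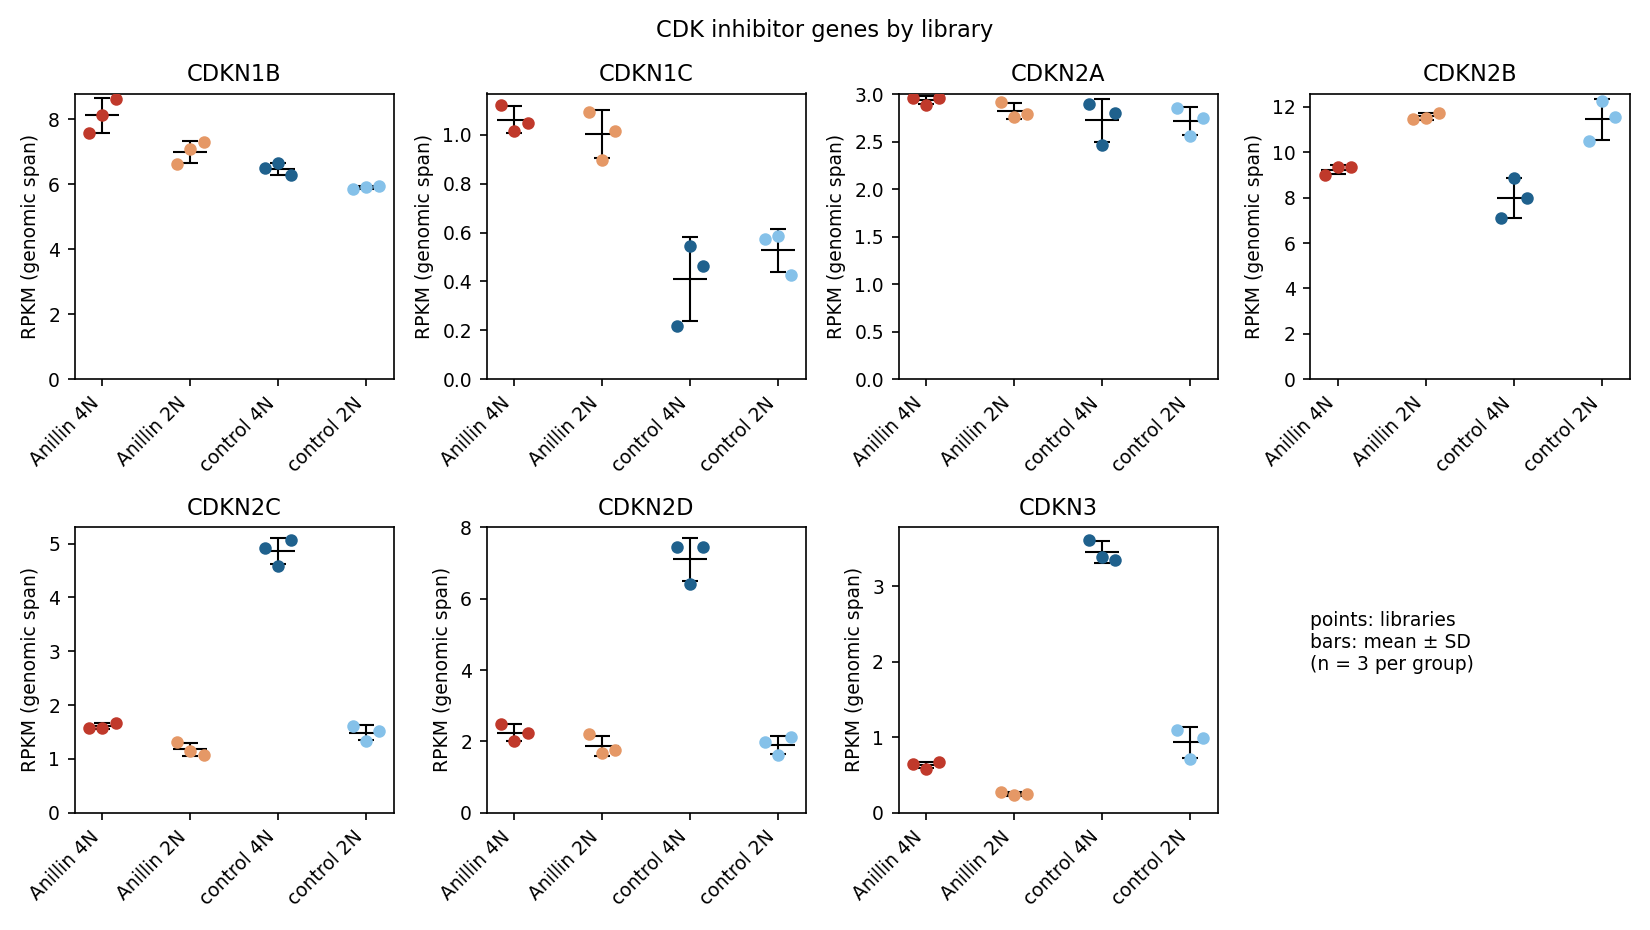
RPKM of each CDK inhibitor gene in the 12 libraries by group, with points for libraries and bars for the mean and SD (n = 3). CDKN2C, CDKN2D and CDKN3 are highest in control 4N, CDKN1C separates the Anillin from the control libraries, and CDKN2B is lower in the 4N than in the 2N libraries.

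In 4N cells after Anillin siRNA, CDKN1B, CDKN1C and CDKN2B were higher in Anillin 4N and CDKN2C, CDKN2D and CDKN3 lower, compared with control 4N, so 3 of 7 were called higher and 3 lower at adjusted p under 0.05. Among all 12892 genes tested, 20.0% were called higher and 31.5% lower. The call of CDKN2B was lost in 7 alternative settings, and over the alternatives the higher count was 2 to 4 while the lower count stayed at 3. The median log2 change was 0.09 over the 7 genes and -0.05 over all genes. Of all calls 38.9% were higher, and 52.4% with quantile scaling. The exon-based sum of the INK4 genes was 44.0 ± 0.635 in Anillin 4N and 62.7 ± 2.32 in control 4N (SD, n = 3 each). It was 44.6 ± 1.34 in Anillin 2N and 45.1 ± 0.858 in control 2N, so control 4N stood apart. Within that sum CDKN2A made up 42.5% and CDKN2B 33.4% in Anillin 4N, against 27.7% and 20.3% in control 4N, where CDKN2C was the leading INK4 gene at 32.4%. CDKN2A and CDKN2B made up 40.3% and 41.4% in Anillin 2N, and 38.4% and 40.5% in control 2N.

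**Figure D3:**
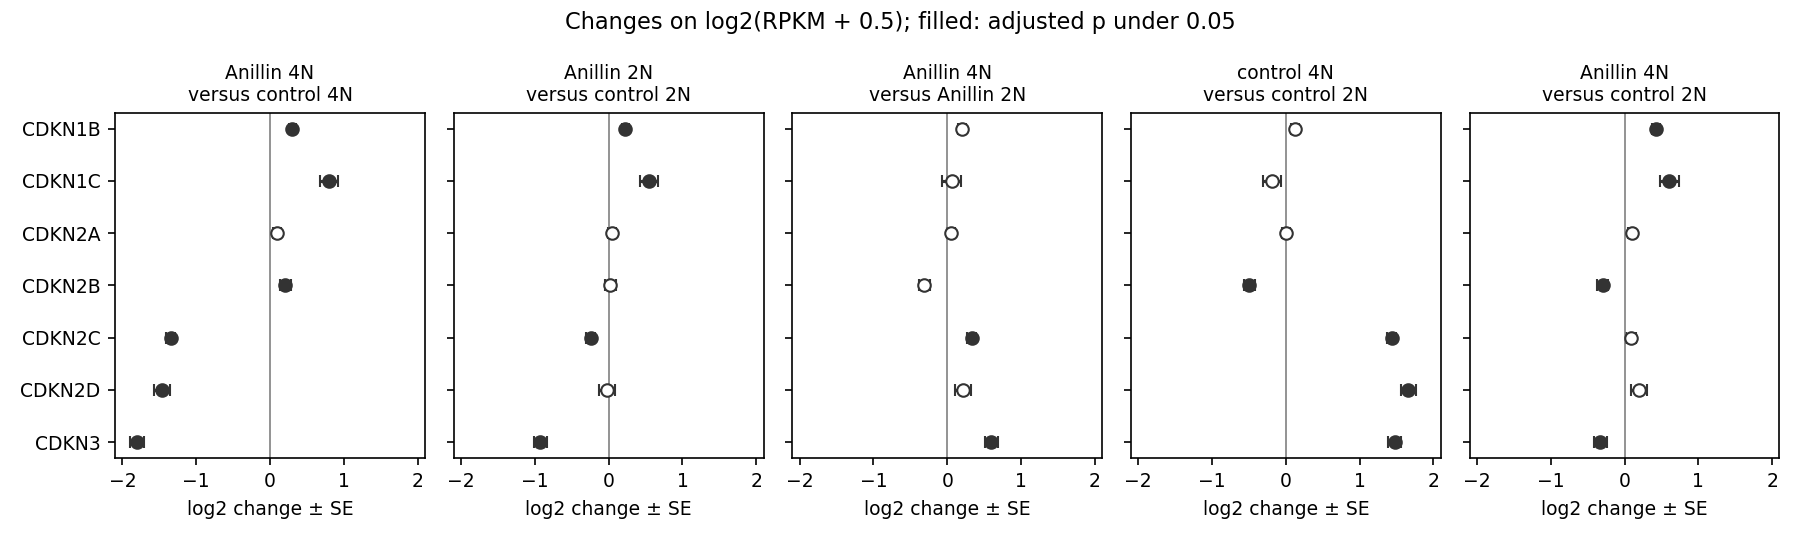
Log2 change of each CDK inhibitor gene on log2(RPKM + 0.5) in 5 comparisons, with SE bars and filled points for adjusted p under 0.05. CDKN2C, CDKN2D and CDKN3 lie between -1.35 and -1.80 for Anillin 4N versus control 4N and between 1.43 and 1.66 for control 4N versus control 2N.

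The kinases and cyclins that these proteins act on were followed in the same comparison. Of the targets of the CIP/KIP proteins and KAP, 6 of 7 listed genes were tested and all 6 fell, beside 31.5% of all genes, with a median log2 change of -2.14. CDK1, the mitotic kinase, changed by -2.87 (adjusted p = 4.27e-08), and its partner cyclins CCNA2 by -2.34, CCNB1 by -2.32 and CCNB2 by -1.96. CDK2 changed by -1.22 (adjusted p = 7.07e-06). CCNE2, a cyclin E gene, changed by -0.35, and by -1.40 on the recovered reads, a call lost with quantile scaling (-0.21, adjusted p = 0.107). Of the INK4 targets only CDK4 and CCND1 of 5 genes passed the filter on low values. CDK6, CCND2 and CCND3 fell short of it in RPKM, which divides by the genomic span and can be low for that reason. CDK4 gave -0.24 (adjusted p = 0.0280), a call lost without Anillin 4N replicates 1 or 2 or control 4N replicates 1 or 3 (adjusted p 0.0691 to 0.106) and under quantile scaling (-0.07, adjusted p = 0.272). CCND1, the main D-type cyclin, gave 0.02 (adjusted p = 0.888). On the recovered reads, which keep all 5, CCND3 (0.25) and CCND2 (1.29) were higher and CDK4 (-0.24) lower in Anillin 4N, while CDK6 gave -0.14 (adjusted p = 0.0613). CCND2 lay near the floor, at 0.00924 to 0.0426 RPKM over the 12 libraries.

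Genes that set the stability of p27 and p57 proteins were followed in the same comparison. Of 12 listed, 11 were tested, with 3 higher, 6 lower and a median of -0.19, beside 20.0% of all genes called higher and 31.5% lower. CKS1B, the cofactor with which SKP2 recognises p27, fell by 2.33 on the log2 scale (adjusted p = 1.91e-06) and CCNF, cyclin F of an SCF ligase, by 1.42. UHMK1, the KIS kinase that phosphorylates p27 and sends it out of the nucleus, fell by 1.16 (adjusted p = 4.36e-08). The SCF core genes SKP1, CUL1 and RBX1 fell by 0.46, 0.30 and 0.19. SKP2 itself was slightly higher (0.15, adjusted p = 0.00581), as were FBXL12 (0.16), of an SCF ligase for p57, and RNF123 (0.15, adjusted p 0.0533 and 0.11 without Anillin 4N replicate 3). UHMK1 gave 0.10 between control 4N and control 2N (adjusted p = 0.0773). In 2N cells UHMK1 (-0.90, adjusted p = 3.03e-06) and CKS1B (-0.97, adjusted p = 0.00175) were lower after Anillin siRNA. On the recovered reads CCNF gave -2.21, CUL1 -0.53 and SKP2 0.28, and RBX1 gave -0.11 with quantile scaling.

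Of 20 transcriptional regulators of these genes 15 were tested in 4N cells, with 5 higher, 5 lower and a median of 0.06, beside the same 20.0% and 31.5% of all genes. The lower ones were MYC (-0.84, adjusted p = 1.74e-05), a repressor of CDKN2B and CDKN1B, the Polycomb subunits EZH2 (-0.75), SUZ12 (-0.33) and BMI1 (-0.20), which silence the CDKN2A and CDKN2B locus, and ETS1 (-0.28), an activator of CDKN2A. The call of BMI1 was lost with quantile scaling (adjusted p = 0.243). The higher ones were KLF4 (0.51, adjusted p = 0.00327), FOXO4 (0.34) and FOXO3 (0.14), the FOXO factors being activators of CDKN1B, RING1 (0.32), a Polycomb ligase, and DMTF1 (0.22), an activator of p14ARF. The call of DMTF1 was lost without Anillin 4N replicate 1 or control 4N replicate 1 (adjusted p 0.0621 and 0.0665, log2 change 0.19 and 0.18). Of 8 retinoblastoma family genes and their E2F-pathway partners 6 were tested and 5 fell (median -0.57), where 31.5% of all genes did, among them FOXM1 (-1.86), E2F1 (-1.03), MYBL2 (-0.79) and RB1 (-0.35). The remaining call, E2F4 (-0.17, adjusted p = 0.0408), was lost without Anillin 4N replicates 1 or 3 or control 4N replicates 1 or 3 (adjusted p 0.0605 to 0.145), with quantile scaling (-0.06, adjusted p = 0.282) and with median-ratio scaling (-0.11, adjusted p = 0.0977). On the recovered reads EZH2 gave -1.55, SUZ12 -0.51, FOXO3 0.26, MYBL2 -1.21 and RB1 -0.69.

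The genes that lie next to the inhibitors on the chromosomes were compared as well. Of 22 listed 13 were tested in 4N cells, with 1 higher, 7 lower and a median of -0.21, against 20.0% higher and 31.5% lower over all genes. NAP1L4, near CDKN1C, changed by -0.60 (adjusted p = 2.36e-06) while CDKN1C was higher, and KRI1, near CDKN2D, by -0.51 (adjusted p = 9.96e-05). DMRTA1, beyond CDKN2B, was the 1 neighbour called higher (0.25, adjusted p = 0.00843). Among the lower ones, TSSC4 lost its call in 8 alternative settings and GMFB in 10, and GMFB gave 0.03 with quantile scaling.

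**Figure D4:**
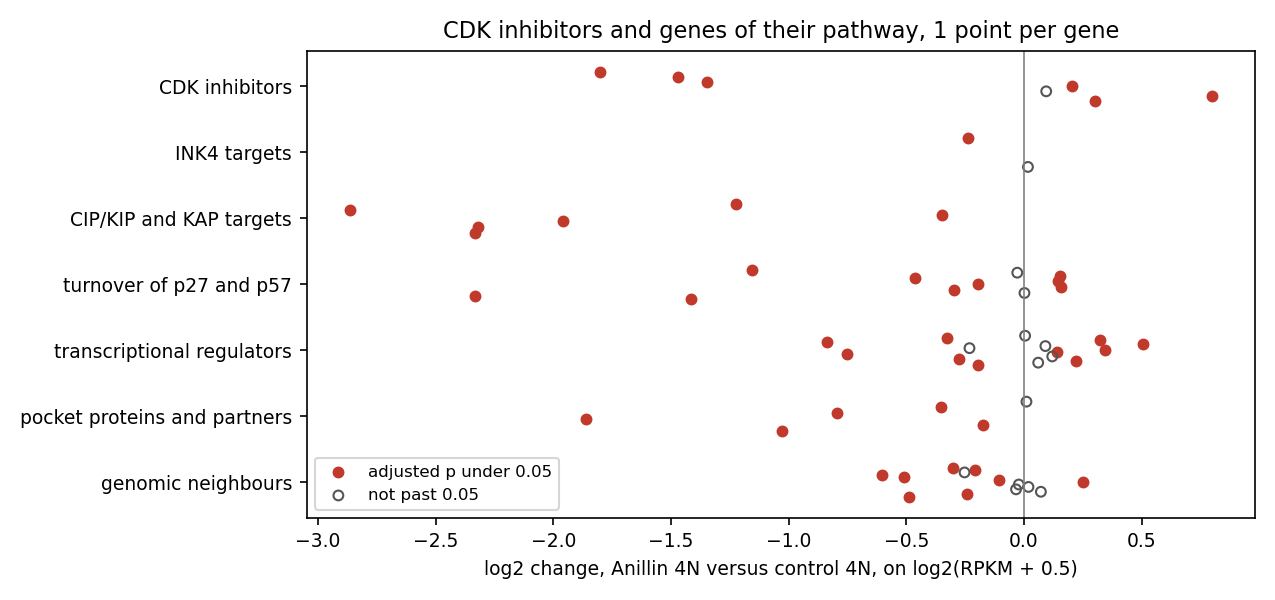
Log2 change in Anillin 4N versus control 4N for the CDK inhibitors and 6 lists of their pathway, with 1 point per tested gene and filled points for adjusted p under 0.05. The 6 CIP/KIP and KAP targets all lie at or below -0.35, the inhibitors lie on both sides of 0 and the transcriptional regulators have 5 calls on each side.

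In control cells the comparison of 4N with 2N shows the inhibitors by DNA content without the Anillin siRNA. CDKN2C, CDKN2D and CDKN3 were higher and CDKN2B lower in control 4N than in control 2N. Thus 3 of 7 were called higher and 1 lower, beside 23.9% and 13.2% of all genes. The median was 0.12 over the 7 genes and 0.05 over all. Higher calls made up 64.4% of all calls, and 46.0% with quantile scaling, 52.4% with median-ratio scaling and 52.2% on the recovered reads. CDKN1B gave 0.12 (95% interval 0.01 to 0.24, adjusted p = 0.0819) and CDKN1C -0.19 (-0.47 to 0.09, adjusted p = 0.260). Of the CIP/KIP and KAP targets, CDK1 (2.82), CCNA2 (2.55), CCNB1 (2.34), CCNB2 (2.03) and CDK2 (0.83) were higher in control 4N and CCNE2 lower (-0.69, and -1.50 on the recovered reads).

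After Anillin siRNA the same comparison gave fewer calls. CDKN3 and CDKN2C stood higher in Anillin 4N when set against Anillin 2N, which is 2 of 7 called higher and 0 lower by limma, beside 2.61% and 0.97% of all genes. At an unadjusted p under 0.05, and also on the recovered reads, 3 were higher and 1 lower, with CDKN1B and CDKN2B added. Of all 22403 genes tested on the recovered reads, 576 were called higher and 329 lower. The share of all genes at an unadjusted p under 0.05 was not looked at. On the RPKM values, higher calls made up 72.9% of all calls and 61.4% with quantile scaling. The median was 0.20 over the 7 genes and 0.02 over all. CDK1 (0.97), CCNA2 (1.38), CCNB1 (1.16) and CCNB2 (0.97) were higher in Anillin 4N and CDK2 gave -0.02 (adjusted p = 0.949). On the recovered reads CDK1 gave 1.46.

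In 2N cells, CDKN1B and CDKN1C were higher after Anillin siRNA and CDKN2C and CDKN3 lower. This is 2 of 7 called higher and 2 lower, beside 11.4% and 17.1% of all genes. The median was 0.02 over the 7 genes and -0.02 over all. Higher calls were 40.01% of all calls and 50.7% with quantile scaling. CDKN2C changed by -0.24 ± 0.06 (adjusted p = 0.0169), a call lost without Anillin 2N replicates 2 or 3 or control 2N replicates 1 or 3 (adjusted p 0.0556 to 0.0661, log2 change -0.20 to -0.23). A fit on the compared groups alone lost this call as well (adjusted p = 0.0705). CCNA2 (-1.17), CCNB1 (-1.14), CDK1 (-1.01), CCNB2 (-0.89) and CCNE2 (-0.75) were also lower in Anillin 2N, and on the recovered reads CDK1 gave -1.53 and CCNE2 -1.69. CDK2 was lower as well (-0.37, adjusted p = 0.0211), a call lost in 7 alternative settings. All 3 Anillin 2N libraries had less CDKN3 than any other library of the study.

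Anillin 4N was also set against control 2N, since both fractions can hold G1 cells. CDKN1B (0.43 ± 0.05, adjusted p = 0.000251) and CDKN1C (0.61 ± 0.12, adjusted p = 0.00510) were higher in Anillin 4N. CDKN2B (-0.29 ± 0.07, adjusted p = 0.0154) and CDKN3 were lower. On the recovered reads CDKN1C gave 1.06 and CDKN3 -0.56. That is 2 of 7 in each direction, beside 14.1% of all genes called higher and 15.8% lower. The medians were 0.10 over the 7 genes and -0.00307 over all. CDK1 (-0.04, adjusted p = 0.773), CCNB1 (0.02, adjusted p = 0.913) and CCNB2 (0.07, adjusted p = 0.570) did not pass the test. CCNA2 did not pass it either, so 4 of the 6 tested CIP/KIP and KAP targets were uncalled. CCNE2 was lower (-1.03, adjusted p = 5.40e-06, and -2.90 on the recovered reads). CDK2 was lower as well (-0.39, adjusted p = 0.0165), a call lost without Anillin 4N replicate 1, control 2N replicate 1 or control 2N replicate 3 (adjusted p 0.0560 to 0.0621) and in a fit on the compared groups alone (adjusted p = 0.0745).

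Whether the siRNA effect differed with DNA content was tested as an interaction in the same limma fit. CDKN2C, CDKN2D and CDKN3 fell more in 4N than in 2N cells, by differences of -1.10 ± 0.09 (adjusted p = 5.26e-05), -1.45 ± 0.15 (adjusted p = 0.000268) and -0.88 ± 0.12 (adjusted p = 0.00157). Of the 7, 0 were called higher by limma and 3 lower, beside 4.93% of all genes called higher and 10.7% lower. At an unadjusted p under 0.05 or on the recovered reads, 0 of the 7 were higher as well. Of all interaction calls 31.5% were higher, 41.5% with quantile scaling and 43.7% on the recovered reads. The call of CDKN3 depends on the scale, since on the recovered reads its difference was -0.52 (adjusted p = 0.0617). For CDKN1B (0.08, 95% interval -0.08 to 0.24), CDKN1C, CDKN2A (0.05, -0.12 to 0.21) and CDKN2B (0.18, -0.05 to 0.42) the difference did not pass the test.

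**Figure D5:**
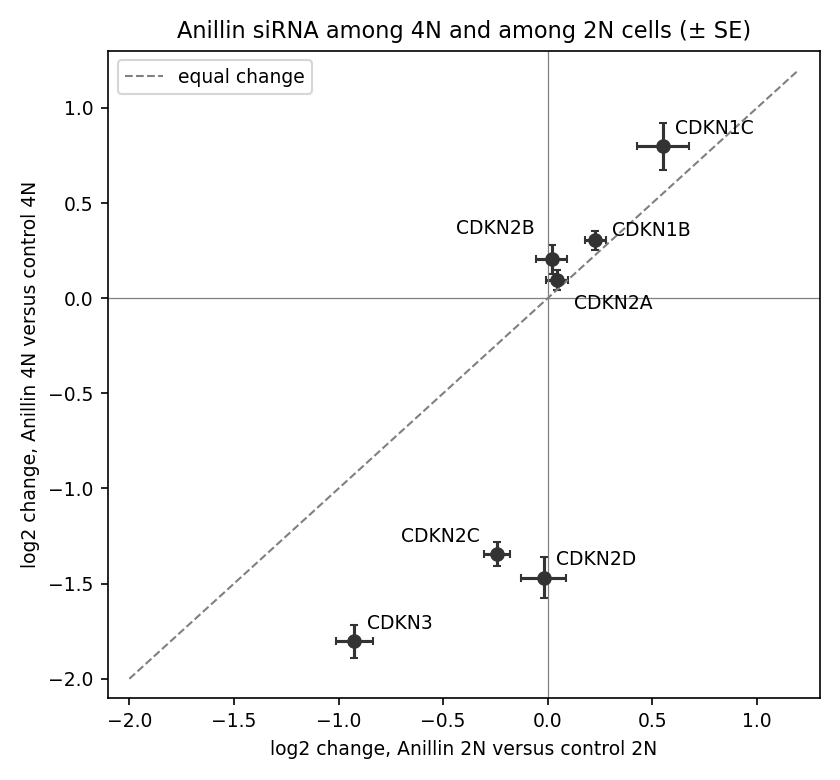
Log2 change with Anillin siRNA in 4N cells (vertical axis) and in 2N cells (horizontal axis) for each CDK inhibitor gene, with SE bars and a dashed line of equal change. CDKN2C, CDKN2D and CDKN3 lie below the line and CDKN1B, CDKN1C, CDKN2A and CDKN2B close to it.

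The pattern of each gene over the 12 libraries was compared with the other genes by Pearson's r on log2(RPKM + 0.5), among 4966 genes with a mean of at least 2 RPKM. These correlations are descriptions, since the libraries share 4 group means. CDKN3 was most like CEP55, a midbody gene (r = 0.9985), then NCAPD2, MAD2L1, PRC1 and ANP32E. CDKN2C was most like CDCA8, a chromosomal passenger subunit (r = 0.997), then HMGB3, RHNO1, AURKA and CKAP2. CDKN2D was most like MXD3, a MAX dimerisation partner (r = 0.991), then UBALD2, KMT5A, GNAI3 and RHNO1, which it shares with CDKN2C.

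The other members had different nearest genes. CDKN1B was most like RPUSD4 (r = 0.957), TRIAP1, RPS27L, PLAU and AEN. CDKN1C was most like CRABP2, a retinoic acid binding protein (r = 0.962), then KLHDC8B, GLMP, DDR1 and CTSA. CDKN2B was most like ERRFI1, a feedback inhibitor of the EGF receptor (r = 0.976), then TPCN1, AP1G2-AS1, LIMK2 and TSPYL2. CDKN2A, which varied least, had its best match in SELENOH (r = 0.910). Among the members, CDKN2C and CDKN2D (r = 0.987), CDKN2C and CDKN3 (0.965) and CDKN2D and CDKN3 (0.925) were alike, CDKN2B ran opposite to CDKN2C (-0.845) and CDKN2D (-0.847), and CDKN1B and CDKN1C had r = 0.694.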

How the data were processed

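RNA-seq libraries of sorted RPE1 cells were prepared, per the labels' protocols, with a TruSeq Stranded mRNA kit, although another label says ribo-depleted total RNA, which is not settled here. The authors deposited 1 table of RPKM values for all 12 libraries. The submitters' processing notes name CASAVA 1.8.2, TopHat2, edgeR and hg19 without roles, and the annotation, the counting and its strand setting are nowhere given. With the library's effective size and GENCODE 29 genomic spans, 29239 of 38571 rows above 0 of the deposited RPKM gave whole reads within 0.01. A further 9331 did so only with a common divisor chosen to make the reads whole, which says nothing of their length. CDKN1C (divisor 2669, span 2561) and CDKN2A (divisor 27550, span 27549) are among these. Levels between genes use the same reads over the exon union length.

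Genes with at least 0.5 RPKM in at least 3 libraries (12892) were tested with limma-trend (version 3.58.1, run under R 4.3.3) after taking log2(RPKM + 0.5), with 1 mean per group and all 12 libraries sharing the spread, two-sided, and Benjamini-Hochberg adjustment over all genes at 0.05. As an alternative, limma-voom was run on the recovered reads (at least 10 in at least 3 libraries, 22403 genes), where it called 4651 genes higher and 5292 lower for Anillin 4N versus control 4N. All 7 inhibitor genes passed both filters. Other alternatives were pseudocounts, filters, scalings (quantile, median ratio), fits on the compared groups alone and leaving out each library. The tests were checked on simulated reads with the same spread setting for every gene, few changed genes and known library sizes. That check does not cover how the calls depend on scaling in these data. The members, and the lists of targets, protein turnover, transcriptional regulators, retinoblastoma family genes and chromosomal neighbours, were chosen with earlier results of these data known. For each member the 5 genes most like it were named by the rule given with them. The submitters call the libraries biological replicates and number all 12 apart, so replicate numbers follow accession order, and since no label says whether cultures were separate, p-values reflect library spread alone, which may be technical. Sequences were matched by symbol to RefSeq promoters, which hold 6 of the 7 genes and lack CDKN1C.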

Additional observations from a re-analysis of the deposited data

Results flagged for a closer look

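For 3 of the 7 CDK inhibitor genes the change with Anillin siRNA in 4N cells differed from that in 2N cells in limma's test of the difference itself. For CDKN2C the difference was -1.10 on the log2 scale (adjusted p = 5.26e-05), with changes of -1.35 in 4N cells and -0.24 in 2N cells. For CDKN2D the difference was -1.45 (adjusted p = 0.000268), with changes of -1.47 in 4N cells and -0.02 in 2N cells. For CDKN3 the difference was -0.88 (adjusted p = 0.00157), with changes of -1.80 in 4N cells and -0.93 in 2N cells. On the recovered reads the differences were -1.25 for CDKN2C, -1.61 for CDKN2D and -0.52 for CDKN3, the last with an adjusted p of 0.0617.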

How the results depend on the processing

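No paired analysis was possible because the labels number all 12 libraries apart and no number is shared between groups. For the members' log2 changes, 311 alternative values kept their direction and side of the threshold, 6 passed it newly, 7 lost it and 5 changed sign. With 1 library left out, 267 kept both, 1 passed newly, 17 lost the threshold and 9 changed sign. The count of inhibitors called between Anillin 4N and Anillin 2N was 2, and 1 without a filter on low values, 4 on the recovered reads with voom and 1 to 2 with 1 library left out. With a filter at RPKM 1, 2 were called higher and 1 lower. In the fit on the compared groups alone, 1 was called higher and 1 lower. All values that changed sign were uncalled. CDKN2A between control 4N and control 2N gave -0.0956 with quantile scaling, -0.0540 with median-ratio scaling, -0.00713 on the recovered reads and -0.0387 to 0.0588 with 1 library left out. CDKN2D between Anillin 2N and control 2N gave 0.00833 with quantile scaling, 0.000538 with median-ratio scaling and -0.113 to 0.0449 with 1 library left out. With 1 library left out, CDKN2B between Anillin 2N and control 2N ranged over -0.0384 to 0.0682, and CDKN2A in the difference between the siRNA effects over -0.00932 to 0.0882. The causes were not tested. The fit on the compared groups alone was not run for that difference, which uses all 4. Depth limits CDKN1C most, at 14 to 139 reads per library.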
